A study of Mus musculus with 12 samples.

Results

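The 10 lens cell-fate regulators described here are Pax6, Six3, Foxe3, Mab21l1, Sox2, Prox1, Maf, Sox1, Pitx3 and Hsf4. They were chosen by name, as the rows of the deposited count table that carry these gene symbols, and all 10 were found among the 8676 genes of the table. RNA was sequenced from lenses of postnatal day 7 (P7) mice of 4 genotypes on the C57BL/6J background, with 3 libraries per genotype and 6 pooled lenses per library. Epha2 encodes a receptor tyrosine kinase of the EPH family that is abundant in lens cell membranes, and variants of the human gene are linked to cataract. Wild type mice carried no Epha2 mutation. Epha2-Q722 mice were homozygous for a gene-edited missense change of an arginine codon to glutamine in the kinase domain. Epha2-indel722 mice were homozygous for an insertion-deletion at the same codon. That line came from a single founder of the same editing that carried an unintended change, so it stands for 1 mutational event. Epha2-null mice carried a null allele from a mouse repository. All 3 mutations are germline, so Epha2 is affected in every tissue and not in the lens alone. The pooled libraries hold whole lenses, and a lower level in such RNA cannot be told apart from fewer cells of the type that expresses the gene.

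The lens forms from surface ectoderm under Pax6, a paired and homeodomain factor, with Six3 and Sox2. It keeps a sheet of epithelial cells at its front, where Foxe3 is needed for survival and proliferation. Cells at the equator leave the cell cycle and elongate into fiber cells, a step that requires Prox1, Maf and Sox1 and brings on the crystallins, the soluble proteins that fill the fiber. Pitx3 acts in both compartments of the developing lens, and Hsf4 drives late fiber maturation. Mab21l1 encodes a mab-21 family protein needed for growth of the lens placode and is grouped with the transcription factors here although it is not a classical DNA-binding protein.

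Library totals ran from 14543069 to 20340688 counts with a median of 18521249, and the 10 genes together held 0.228% to 0.302% of a library, or 38028 to 56963 counts. The 16 crystallin genes took 62.3% to 64.4% of counts in the wild type libraries and 57.2% to 57.8% in those of Epha2-null, so that all other genes together took a larger share there. TMM factors, which rescale each library so that the typical gene is equal between libraries, were 0.886 to 0.913 for wild type libraries and 1.06 to 1.12 for those of Epha2-null. Normalized CPM, which are counts scaled to library size and TMM factor, are used below. On the scale of plain library totals the median gene was 0.15 (log2) higher than wild type in Epha2-Q722, 0.17 higher in Epha2-indel722 and 0.28 higher in Epha2-null. A rise or fall below is therefore a change relative to the median gene. Lens fiber and epithelial markers were present in every library, whereas 1 of 23 listed markers of retina, iris and ciliary body, 1 of 9 of pigmented epithelium, 0 of 6 of corneal epithelium, 1 of 8 of endothelium, 0 of 10 of leukocytes and 0 of 9 of red blood cells had a row in the table. The 4 of 11 markers of pericytes, smooth muscle and fibroblasts that had one summed to 63.5 to 92.2 normalized CPM in wild type libraries. The sum was 71.3 to 81.3 for Epha2-Q722, 73.0 to 99.6 for Epha2-indel722 and 105 to 199.9 for Epha2-null, and the part of such cells in the results was not tested. In Epha2-null the retina, iris and ciliary body marker with a row, Glul, rose by 0.57 (log2). Mitf, that of pigmented epithelium, fell there by 0.46, a call lost on library totals. The table keeps genes above 3 CPM in at least 6 libraries, so a marker above that level in 1 genotype alone has no row. Epha2, the targeted gene, was 51.4 to 63.1 normalized CPM in wild type libraries, against 45.0 to 54.4 for Epha2-Q722, 20.0 to 21.6 for Epha2-indel722 and 30.6 to 36.9 for Epha2-null. The log2 fold change of Epha2 was -0.21 in Epha2-Q722 (adjusted p 0.156 in edgeR's quasi-likelihood test, and 0.032 without Epha2-Q722 library 3), -1.46 in Epha2-indel722 and -0.71 in Epha2-null. Replicates are separate lens pools, and p-values measure the spread between pools.

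The 10 genes spanned a wide range of abundance in the wild type lens. Levels of different genes were compared as normalized CPM per kilobase of annotated exon. On that scale Hsf4 was highest at 181 ± 15.5 (SD, n = 3), followed by Maf at 162 ± 15.8 and Foxe3 at 113 ± 10.4. Prox1 at 68.7 ± 2.23, Pitx3 at 55.9 ± 1.84 and Sox1 at 52.3 ± 2.71 formed a middle group. Six3 at 11.6 ± 0.393, Sox2 at 8.77 ± 0.786, Pax6 at 6.24 ± 0.120 and Mab21l1 at 6.15 ± 0.634 were lowest. The ranges of Hsf4 and Maf, of Pitx3 and Sox1, and of Pax6 and Mab21l1 overlapped between libraries. Within each wild type library Hsf4 was above Maf and Pitx3 above Sox1. The order of Pax6 and Mab21l1 differed between libraries and is not resolved. Exon length enters this order directly, since the annotation gives 867 bases for Foxe3 and 11694 for Pax6, whose 26 transcripts are merged. Hsf4, Maf and Foxe3 nevertheless lay at percentiles 98.8, 98.7 and 98.1 of 8675 genes with a length, and Pax6 at percentile 71.4. The order changed in the Epha2-null lens at 1 place among the higher genes: Foxe3 at 119 ± 4.87 stood above Maf at 112 ± 10.4, with overlapping libraries.

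**Figure D1:**
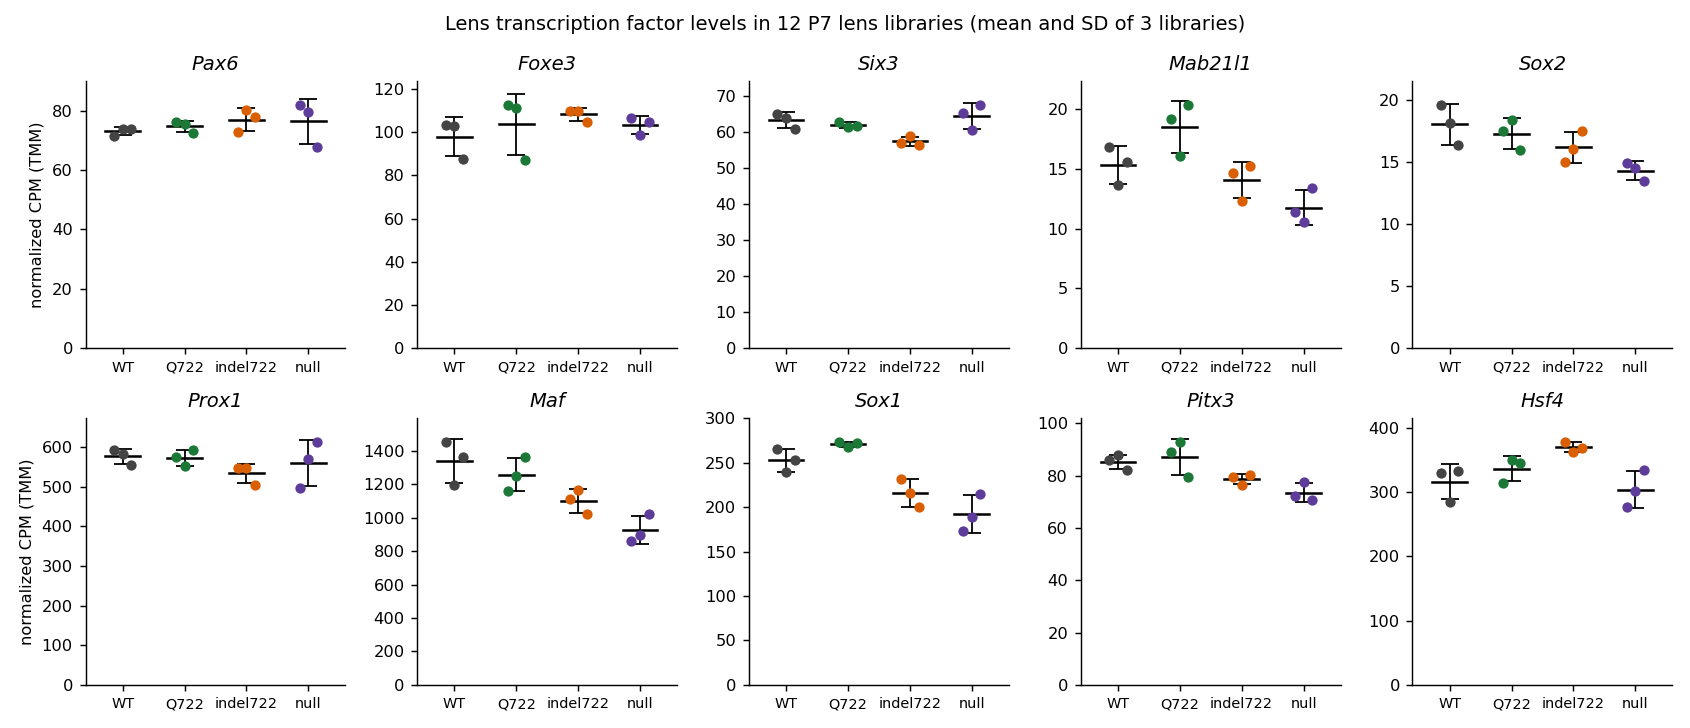
Normalized CPM (TMM scale, y axis from 0) of the 10 genes in each of the 12 libraries by genotype; points are libraries, the long line is the mean and the bars are the SD of 3 libraries. Maf ran from 1197 to 1453 in wild type and from 859.9 to 1024 in Epha2-null, while Pax6 overlapped between all 4 genotypes.

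In Epha2-Q722 lenses none of the 10 genes passed the test. The threshold was an adjusted p of 0.05 or less by edgeR's quasi-likelihood test, which 6.37% of all genes met, and 0 of 10 lies near that background. One of the 10, Mab21l1, had an unadjusted p under 0.05. The median log2 fold change of the 10 was 0.03, beside 0.00 for all genes. In Epha2-indel722 lenses 3 of the 10 passed (background 13.1%): Maf and Sox1 fell (background for a fall 6.37%) and Hsf4 rose (background for a rise 6.73%). In Epha2-null lenses 5 of the 10 passed (background 11.2%), and all 5 were lower: Maf, Sox1, Mab21l1, Sox2 and Pitx3 (background for a fall 6.22%). The median log2 fold change was -0.12 in Epha2-indel722 and -0.14 in Epha2-null, beside 0.00 and 0.01 for all genes. Without TMM factors the split reads otherwise, with 3 up and 0 down in Epha2-indel722 and 4 up and 1 down in Epha2-null, since the whole table then moves up by the shifts given above. All comparisons with wild type share the same 3 wild type libraries.

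No change of the 10 reached 2-fold in any comparison, a size that 0.807% of genes reached with a pass in Epha2-Q722, 1.01% of them in Epha2-indel722 and 0.841% of them in Epha2-null. The median absolute log2 fold change of the 10 was 0.07, 0.14 and 0.15 in the same order, beside 0.10, 0.12 and 0.12 for all genes. The fitted standard errors of the 10 had a median of 0.07 against 0.10 for all genes, so the 10 were measured more precisely than the typical gene. The libraries of the mutant and of wild type did not overlap for 1 of the 10 genes in Epha2-Q722 (background 22.4%), 7 in Epha2-indel722 (background 32%) and 5 in Epha2-null (background 28.6%).

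**Figure D2:**
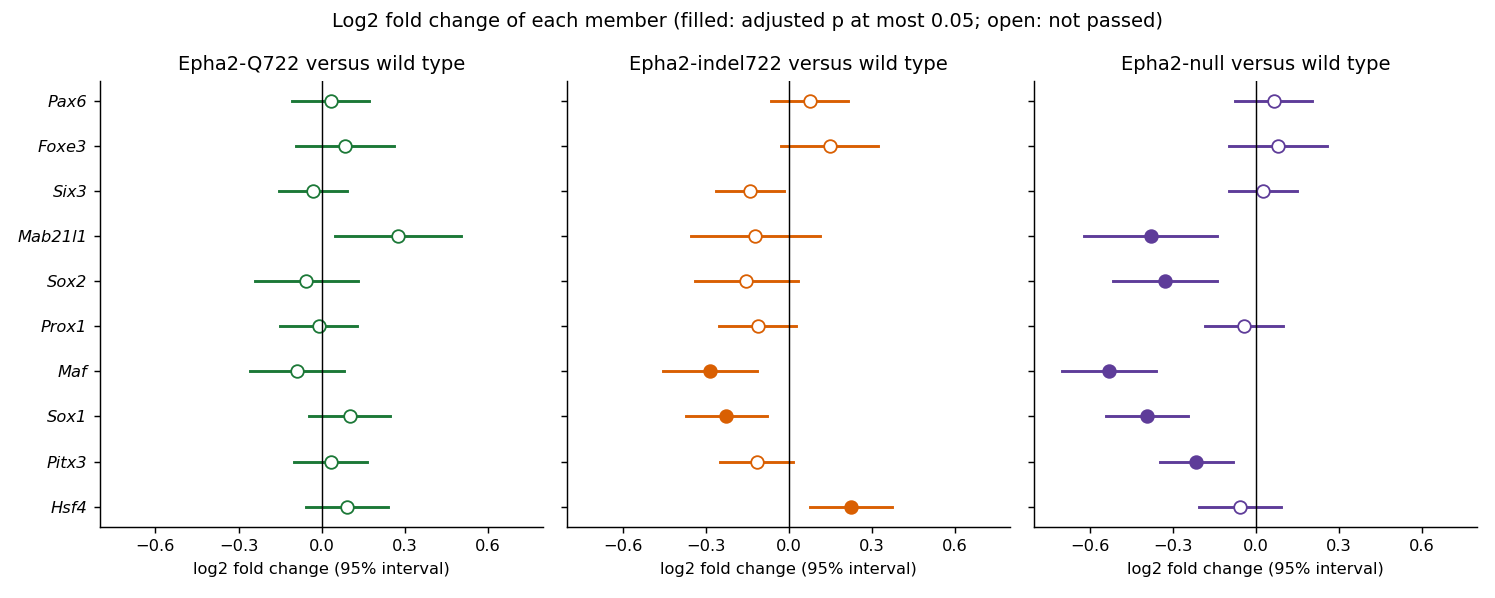
Log2 fold change on the TMM scale of each gene against wild type (x axis) with its 95% interval, by mutant genotype; filled points passed an adjusted p of at most 0.05. The 5 filled points in Epha2-null lie to the left of 0, from -0.21 for Pitx3 (0.052 on the scale of library totals) to -0.53 for Maf, and none is filled in Epha2-Q722.

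On the TMM scale the early regulators Pax6, Six3 and Foxe3 did not pass against wild type. Pax6 (chr2:105668900-105697364 in mm10), the factor at the head of eye development, was 71.4, 73.8 and 73.8 normalized CPM in wild type, 76.1, 75.4 and 72.5 in Epha2-Q722, 72.8, 80.3 and 77.9 in Epha2-indel722 and 81.8, 79.5 and 67.7 in Epha2-null. The Epha2-null libraries spread more widely than the other groups and enclosed all wild type values. Its log2 fold change was 0.03 with a 95% interval of -0.11 to 0.17 for Epha2-Q722, 0.08 (-0.06 to 0.21) for Epha2-indel722 and 0.06 (-0.08 to 0.20) for Epha2-null. On the scale of library totals, where the median gene also rises, Pax6 was 0.24 higher in Epha2-indel722 (adjusted p 0.022) and 0.33 higher in Epha2-null (0.0018), which is 0.08 and 0.05 above the median gene.

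Six3 (chr17:85613608-85629302), a sine oculis homeobox factor that acts beside Pax6, was 65.1, 64.0 and 61.0 normalized CPM in wild type, 62.8, 61.4 and 61.6 in Epha2-Q722, 57.1, 58.8 and 56.4 in Epha2-indel722 and 65.4, 60.6 and 67.5 in Epha2-null. All 3 Epha2-indel722 libraries lay below all others, and the other genotypes overlapped. The log2 fold change of Six3 in Epha2-indel722 was -0.14 (SE 0.059), with an adjusted p of 0.127 in edgeR's quasi-likelihood test, so this gap did not pass. In Epha2-null it was 0.03 with an interval of -0.10 to 0.15, and 0.29 with an adjusted p of 0.0051 on library totals.

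Foxe3 (chr4:114925147-114926013), the forkhead factor of the lens epithelium, was 103, 103 and 87.3 normalized CPM in wild type, 112, 111 and 87.2 in Epha2-Q722, 109.9, 109.7 and 105 in Epha2-indel722 and 106, 98.5 and 105 in Epha2-null. One wild type and 1 Epha2-Q722 library were low, and the Epha2-indel722 libraries were all above wild type. None of the log2 fold changes passed on the TMM scale: 0.08 in Epha2-Q722, 0.15 (interval -0.03 to 0.32) in Epha2-indel722 and 0.08 (interval -0.10 to 0.26) in Epha2-null. Scaled to library totals, Foxe3 passed in Epha2-indel722 (0.31, adjusted p 0.016) and in Epha2-null (0.35, adjusted p 0.0051). Foxe3 lies on chromosome 4, as Epha2 does.

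Sox2 (chr3:34650405-34652461), an HMG-box factor of the early lens and of the epithelium, was among the scarcest of the 10. It was 19.6, 18.2 and 16.3 normalized CPM in wild type, 17.5, 18.4 and 15.98 in Epha2-Q722, 15.0, 16.1 and 17.5 in Epha2-indel722 and 14.9, 14.6 and 13.5 in Epha2-null. The Epha2-null libraries were the lowest of all and overlapped with no other genotype, and the other 3 overlapped with each other. Sox2 fell by 20.3% in Epha2-null (log2 fold change -0.33, SE 0.091, adjusted p 0.020 in edgeR's quasi-likelihood test). The call rests on 234 to 309 counts per library in these 6 libraries and was lost without wild type library 1 (adjusted p 0.091), Epha2-null library 2 (0.052) or Epha2-null library 3 (0.075). It was also lost on library totals, where the log2 fold change was -0.06 (adjusted p 0.560). In Epha2-Q722 and Epha2-indel722 its log2 fold change was -0.05 and -0.15 and did not pass.

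Mab21l1 (chr3:55782510-55785001) was lowest in Epha2-null and highest in Epha2-Q722. Its values were 16.8, 13.7 and 15.6 normalized CPM in wild type, 19.1, 16.1 and 20.3 in Epha2-Q722, 14.7, 12.3 and 15.2 in Epha2-indel722 and 11.4, 10.6 and 13.4 in Epha2-null. The Epha2-null libraries lay below all wild type libraries, by a narrow gap between 13.4 and 13.7. It fell by 23.2% in Epha2-null (log2 fold change -0.38, SE 0.115, adjusted p 0.035 in edgeR's quasi-likelihood test). Without wild type library 1 or 3 or Epha2-null library 1 or 2 the adjusted p was 0.133, 0.101, 0.109 and 0.161, so 4 of 6 omissions end the call. Library totals end it as well, with a log2 fold change of -0.11 (adjusted p 0.437). In Epha2-Q722 the log2 fold change was 0.27 (SE 0.11), with an adjusted p of 0.161. A transcript of the neighbouring gene Nbea, on the opposite strand, covers 39.4% of the exon bases of Mab21l1. The strand setting of the counting is not given in the sources used here, so the Mab21l1 counts are uncertain.

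Prox1 (chr1:190118035-190170714), the prospero homeobox factor needed for fiber elongation, was 592, 582 and 555 normalized CPM in wild type, 573, 551 and 591 in Epha2-Q722, 548, 546 and 505 in Epha2-indel722 and 497, 569 and 612 in Epha2-null. The 3 Epha2-null libraries spanned the whole range of the other groups, from below the lowest to above the highest. Its log2 fold change was -0.01 in Epha2-Q722, -0.11 (interval -0.25 to 0.03) in Epha2-indel722 and -0.04 (interval -0.18 to 0.10) in Epha2-null, and none passed on the TMM scale. On the scale of library totals Prox1 in Epha2-null turned to 0.23 (adjusted p 0.048), which is 0.05 below the median gene.

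Maf (chr8:115682942-115707794), the large bZIP factor that turns on crystallin genes in fiber cells, showed the largest change of the 10 against wild type. It was 1453, 1197 and 1365 normalized CPM in wild type, 1161, 1252 and 1362 in Epha2-Q722, 1110.0, 1163 and 1022 in Epha2-indel722 and 859.9, 896 and 1024 in Epha2-null. Wild type and Epha2-Q722 overlapped, whereas all Epha2-indel722 and Epha2-null libraries lay below the lowest wild type library. Maf fell by 30.8% in Epha2-null (log2 fold change -0.53, SE 0.081, adjusted p 0.00010 in edgeR's quasi-likelihood test). It fell by 17.9% in Epha2-indel722 (log2 fold change -0.29, SE 0.081, adjusted p 0.022). The Epha2-null call held without any 1 library, with a highest adjusted p of 0.0017, and also on the scale of library totals (log2 fold change -0.26, adjusted p 0.046). The Epha2-indel722 call was lost without wild type library 1 (0.128) or 3 (0.073) and without Epha2-indel722 library 1 (0.062) or 3 (0.107), and on library totals (log2 fold change -0.11, adjusted p 0.434).

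Sox1 (chr8:12395295-12400126), an HMG-box factor required for fiber elongation and gamma-crystallin expression, fell in both disrupted genotypes. It was 265, 239 and 253 normalized CPM in wild type, 273, 267 and 272 in Epha2-Q722, 232, 216 and 200.1 in Epha2-indel722 and 173, 189 and 215 in Epha2-null. The genotypes stood in an order in which Epha2-Q722 was above wild type, and Epha2-indel722 and Epha2-null, which overlapped with each other, were below it. Sox1 fell by 23.9% in Epha2-null (log2 fold change -0.39, SE 0.071, adjusted p 0.00053 in edgeR's quasi-likelihood test), and no omission of 1 library raised the adjusted p above 0.0066, but on library totals the log2 fold change was -0.12 and the call was lost (adjusted p 0.270). In Epha2-indel722 it fell by 14.4% (log2 fold change -0.22, SE 0.071, adjusted p 0.039), a call lost without wild type library 1 (0.149) or 3 (0.087) or Epha2-indel722 library 2 (0.109) or 3 (0.175). DESeq2 (0.052), the replicate block (0.055) and library totals (log2 fold change -0.05, adjusted p 0.695) also ended it. In Epha2-Q722 the log2 fold change of 0.10 did not pass (interval -0.05 to 0.25).

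Pitx3 (chr19:46135685-46148326), the homeodomain factor mutated in aphakia mice, was 85.8, 87.7 and 82.2 normalized CPM in wild type, 89.0, 92.9 and 79.7 in Epha2-Q722, 79.6, 76.5 and 80.1 in Epha2-indel722 and 72.1, 77.5 and 70.7 in Epha2-null. The Epha2-indel722 and Epha2-null libraries all lay below the lowest wild type library. On the TMM scale Pitx3 fell by 13.9% in Epha2-null (log2 fold change -0.21, SE 0.064, adjusted p 0.030 in edgeR's quasi-likelihood test), but on the scale of library totals its log2 fold change turned to 0.052, 0.23 below the median gene. The call was lost without wild type library 1 (0.065) or 2 (0.072) or Epha2-null library 1 (0.092) or 3 (0.093). In Epha2-indel722 the log2 fold change of -0.12 did not pass (interval -0.25 to 0.02).

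Hsf4 (chr8:105269801-105275845), the heat shock factor of the fiber cell, was the only one of the 10 with a rise that passed on the TMM scale. It was 330.4, 285 and 334 normalized CPM in wild type, 315, 350.1 and 346 in Epha2-Q722, 378, 363 and 369 in Epha2-indel722 and 276, 302 and 334 in Epha2-null. All Epha2-indel722 libraries lay above all others, and wild type and Epha2-null overlapped. Hsf4 in Epha2-indel722 was 16.97% higher than in wild type (log2 fold change 0.23, SE 0.071, adjusted p 0.038 in edgeR's quasi-likelihood test). This call was fragile: leaving out wild type library 1 or 2 gave 0.067 and 0.248, leaving out Epha2-indel722 library 1, 2 or 3 gave 0.123, 0.082 and 0.080, DESeq2 gave 0.052 and a minimum of 10 CPM gave 0.056. In Epha2-null the log2 fold change was -0.06 (interval -0.21 to 0.09).

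Each library held the highest value of its group for some of the 10 genes and the lowest for others. Wild type library 1 held the highest value of its group for 7 of the 10 genes. Wild type library 2 held the lowest for Sox1, Maf, Hsf4 and Mab21l1. Epha2-null library 3 held the highest for 6 genes, among them Maf, Sox1, Prox1 and Hsf4, and the lowest for Pax6, Sox2 and Pitx3. In Epha2-Q722 and Epha2-indel722 no library held the highest for more than 4 genes. The share of all genes that were highest in each library was not computed, so whether these counts exceed it was not tested.

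The mutant genotypes also differed from each other. Against Epha2-Q722, Epha2-null was lower for 5 of the 10 genes (background 17% in either direction and 9.02% for a fall) and Epha2-indel722 for 2 (12.4% and 5.88%). Sox1 was 29.0% lower in Epha2-null than in Epha2-Q722 (log2 fold change -0.50, SE 0.071, adjusted p 2.7e-05 in edgeR's quasi-likelihood test) and 20.2% lower in Epha2-indel722 (log2 fold change -0.33, adjusted p 0.0032, and 0.055 on library totals). Mab21l1 differed most in size, with a log2 fold change of -0.65 (SE 0.11, adjusted p 0.00020) in Epha2-null and -0.40 (adjusted p 0.017) in Epha2-indel722. The latter call was lost without Epha2-Q722 library 1 (0.066) or 3 (0.073) or Epha2-indel722 library 2 (0.117).

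Maf was 26.4% lower in Epha2-null than in Epha2-Q722 (log2 fold change -0.44, SE 0.081, adjusted p 0.00051 in edgeR's quasi-likelihood test). The corresponding log2 fold change in Epha2-indel722 was -0.20 (interval -0.36 to -0.03, adjusted p 0.124) and did not pass. Pitx3 was also lower in Epha2-null than in Epha2-Q722 (-0.25, adjusted p 0.0081), a call lost without Epha2-Q722 library 2 (0.060) and on library totals (-0.13, adjusted p 0.235). Sox2 was lower by a log2 fold change of -0.27 (adjusted p 0.039), and 5 of 6 omissions of a library ended that call, with adjusted p from 0.056 to 0.162, as did library totals (-0.15, adjusted p 0.238), DESeq2 (0.078) and both fits of the 2 genotypes alone (0.053). The shared Epha2-Q722 libraries enter both sets of values.

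Between Epha2-indel722 and Epha2-null 1 of the 10 genes passed (background 9.85% in either direction and 5.51% for a rise). Hsf4 was 21.7% higher in Epha2-indel722 (log2 fold change 0.28, SE 0.071, adjusted p 0.011 in edgeR's quasi-likelihood test). This was lost without Epha2-null library 1 (0.086), the lowest Hsf4 library of that group, and on library totals (0.18, adjusted p 0.210), where Six3 passed instead (-0.27, adjusted p 0.032). The differences of Maf (0.25, interval 0.08 to 0.41, adjusted p 0.060) and Six3 (-0.17, interval -0.29 to -0.05, adjusted p 0.076) did not pass.

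A ratio of 2 genes within a library needs no scaling factor, so these ratios are given as a description without a test. Maf reads per Hsf4 read were 4.40, 4.20 and 4.09 in wild type, 3.69, 3.58 and 3.94 in Epha2-Q722, 2.94, 3.20 and 2.77 in Epha2-indel722 and 3.11, 2.97 and 3.07 in Epha2-null. Wild type was highest, Epha2-Q722 intermediate, and the other genotypes overlapped below both. Maf per Prox1 was 2.32 ± 0.230 (SD, n = 3) in wild type lenses, 2.20 ± 0.154 with Q722, 2.06 ± 0.0595 with indel722 and 1.66 ± 0.0789 with the null allele. Here Epha2-null lay apart from the other 3 genotypes, which overlapped.

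Sox1 per Prox1 was 0.439 ± 0.0238 in wild type lenses, 0.474 ± 0.0133 with Q722, 0.405 ± 0.0161 with indel722 and 0.344 ± 0.0107 with the null allele. Sox2 per Pax6 went from 0.247 ± 0.0264 in wild type to 0.188 ± 0.00942 in Epha2-null, and Pitx3 per Foxe3 from 0.876 ± 0.0580 to 0.713 ± 0.0644. For these 3 ratios the Epha2-null libraries lay below all wild type libraries. The first gene of each, like Maf above, had already passed as lower in Epha2-null, so these ratios are not separate support. Sox1 per Hsf4 and Maf per Sox1 were also lower in all Epha2-null libraries. Mab21l1 per Pax6 overlapped (0.185 to 0.235 in wild type, 0.133 to 0.197 in Epha2-null), and so did Six3 per Pax6 (0.826 to 0.912 and 0.763 to 0.997). Foxe3 per Pax6 was 1.34 ± 0.139 in wild type and 1.36 ± 0.165 in Epha2-null, and those libraries overlapped. Of all reads of the 10 genes, Maf took 47.1% ± 1.89 in wild type lenses, 44.9% ± 1.92 with Q722, 42.7% ± 1.16 with indel722 and 39.8% ± 0.778 with the null allele.

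**Figure D3:**
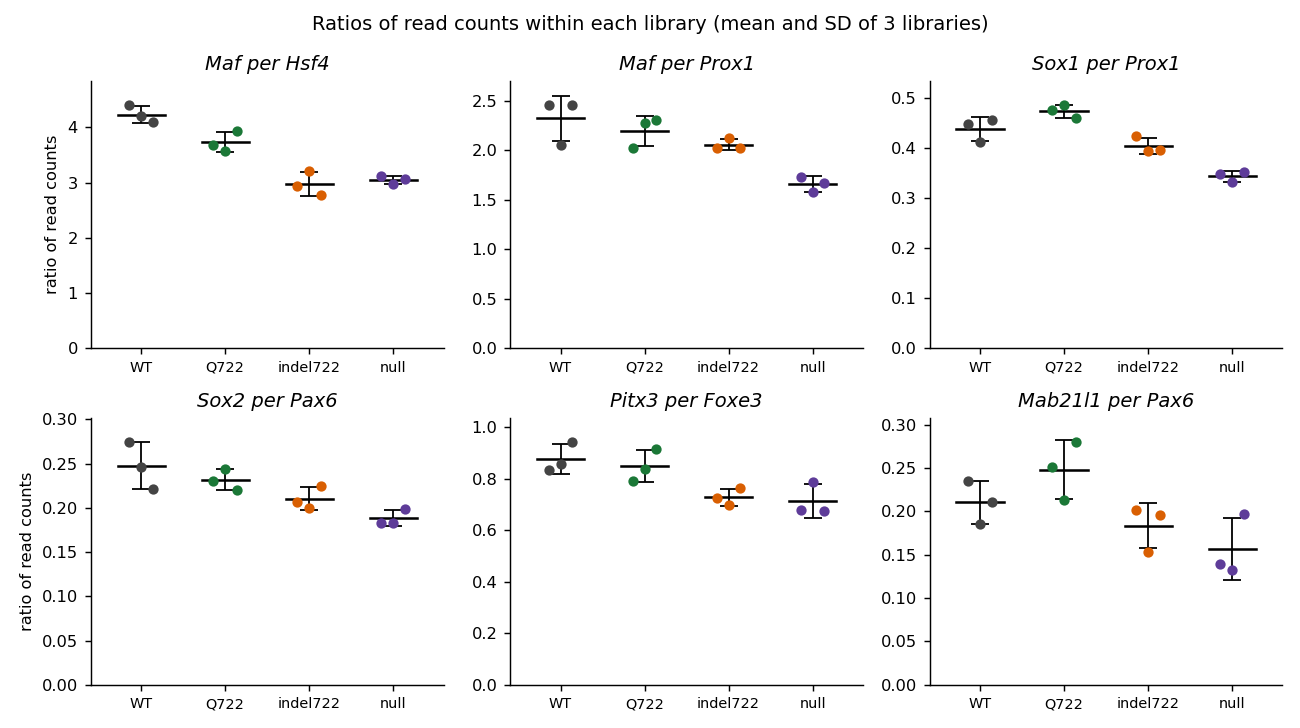
Ratios of read counts of 2 genes within each library (y axis from 0), by genotype; points are libraries, the long line is the mean and the bars are the SD of 3 libraries. Maf per Hsf4 was 4.09 to 4.40 for wild type libraries and 2.97 to 3.11 for Epha2-null, and no scaling factor enters these values.

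Several of the 10 genes share their locus with another transcript, among them long non-coding RNAs. Sox2 lies in an intron of Sox2ot, on the same strand, with 0 exon bases in common. Sox2ot was 90.4, 85.2 and 84.4 normalized CPM in wild type, 36.7, 58.7 and 32.3 in Epha2-Q722, 67.3, 73.2 and 81.4 in Epha2-indel722 and 8.79, 9.12 and 11.4 in Epha2-null. All mutant libraries were below all wild type libraries, the Epha2-indel722 libraries by a narrow gap, and the Epha2-null libraries were below everything else. Sox2ot fell by 3.15 on the log2 scale in Epha2-null (adjusted p 4.1e-05 in edgeR's quasi-likelihood test) and by 1.02 in Epha2-Q722 (adjusted p 0.019). The Epha2-Q722 call was lost without wild type library 1 (0.064) or 3 (0.056) or Epha2-Q722 library 1 (0.069), and in a fit of the 2 genotypes alone (0.136). In Epha2-indel722 the value was -0.23 (adjusted p 0.53), which did pass in a fit of the 2 genotypes alone (0.012). Sox2 itself fell by 0.33 on the log2 scale in Epha2-null, and in Epha2-Q722 its value was -0.05.

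Prox1os starts at the head of Prox1 on the opposite strand and shares 133 exon bases with it, 1.59% of the exon bases of Prox1. It was 122, 119 and 135 normalized CPM in wild type, 121, 138 and 139 in Epha2-Q722, 92.0, 91.8 and 101 in Epha2-indel722 and 65.9, 71.6 and 67.8 in Epha2-null. The Epha2-indel722 and Epha2-null libraries separated from wild type and from each other. Prox1os fell by 0.40 on the log2 scale in Epha2-indel722 (adjusted p 0.00022 in edgeR's quasi-likelihood test) and by 0.87 in Epha2-null (adjusted p 5.8e-09), while Prox1 had -0.11 and -0.04 and did not pass.

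Nbea, whose transcript overlaps Mab21l1, was 51.04 to 58.2 normalized CPM across wild type libraries and 60.9 to 73.4 across those of Epha2-null. Its log2 fold change in Epha2-null was 0.30 (adjusted p 0.010 in edgeR's quasi-likelihood test), opposite in sign to that of Mab21l1, and was lost without wild type library 3 (0.096) or Epha2-null library 3 (0.055). Sox1ot, which encloses Sox1 on the same strand with 0 exon bases in common, was 134 to 139 normalized CPM across wild type libraries and 141 to 158 across those of Epha2-null. Six3os1, on the strand opposite to Six3, was 70.8 to 79.5 across wild type libraries and 69.2 to 75.3 across those of Epha2-null. Neither these nor Gm28172, which lies within Prox1, passed in any comparison with wild type on the TMM scale. On library totals Sox1ot passed in Epha2-indel722 (0.22) and Epha2-null (0.39), and Six3os1 in Epha2-null (0.20).

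**Figure D4:**
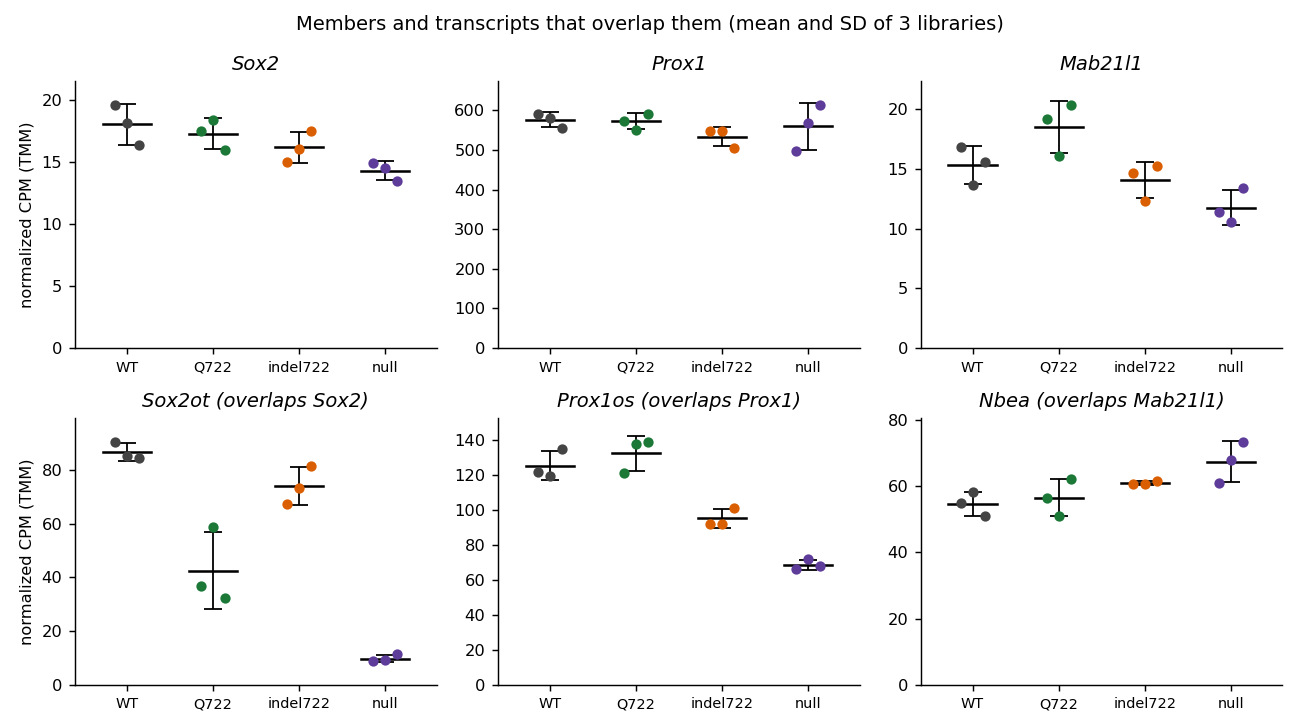
Normalized CPM (TMM scale, y axis from 0) of Sox2, Prox1 and Mab21l1 (upper row) and of a transcript that overlaps each of them (lower row) in the 12 libraries; points are libraries, the long line is the mean and the bars are the SD of 3 libraries. Sox2ot was 84.4 to 90.4 for wild type and 8.79 to 11.4 for Epha2-null, whereas Sox2 was 16.3 to 19.6 and 13.5 to 14.9.

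The RefSeq promoter table of GRCm38.p6, the build of the alignments, holds 9 windows for 7 of the 10 genes. The 250 bases before the start site are shown for Sox2 and Pitx3, which were lower in Epha2-null on the TMM scale, and for Prox1 and Foxe3, which did not pass in any comparison on that scale. Letters run 5′ to 3′ in the direction of the gene, and capitals mark matches on either strand to the motifs named after the sequences.
Sox2, chr3:34649745-34649994, plus strand: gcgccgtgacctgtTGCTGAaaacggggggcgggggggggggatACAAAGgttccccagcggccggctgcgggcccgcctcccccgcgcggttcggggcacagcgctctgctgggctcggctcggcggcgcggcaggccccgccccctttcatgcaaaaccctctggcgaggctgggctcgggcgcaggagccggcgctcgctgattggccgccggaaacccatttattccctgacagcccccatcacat
Pitx3, chr19:46148326-46148575, minus strand: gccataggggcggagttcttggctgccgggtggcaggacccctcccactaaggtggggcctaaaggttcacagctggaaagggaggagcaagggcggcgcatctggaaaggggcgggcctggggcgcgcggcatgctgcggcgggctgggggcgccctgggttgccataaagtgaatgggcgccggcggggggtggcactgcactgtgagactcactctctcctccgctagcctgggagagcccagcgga
Prox1, chr1:190170828-190171077, minus strand: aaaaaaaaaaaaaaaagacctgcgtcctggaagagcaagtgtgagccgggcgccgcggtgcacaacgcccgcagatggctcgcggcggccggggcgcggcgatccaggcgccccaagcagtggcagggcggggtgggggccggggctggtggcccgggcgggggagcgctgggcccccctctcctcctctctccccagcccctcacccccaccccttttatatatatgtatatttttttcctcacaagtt
Foxe3, chr4:114926068-114926317, minus strand: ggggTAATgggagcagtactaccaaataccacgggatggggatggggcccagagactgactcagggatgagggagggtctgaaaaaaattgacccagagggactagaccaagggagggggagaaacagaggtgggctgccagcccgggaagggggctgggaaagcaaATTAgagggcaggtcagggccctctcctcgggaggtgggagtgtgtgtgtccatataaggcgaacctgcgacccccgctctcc

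The motifs searched on both strands were TGCTGA, the half-site of the Maf recognition element, ACAAAG, a core bound by SOX factors, TAAT, the homeodomain core, and GAANNTTC, a pair of heat shock element units. None of these overlaps another in the windows shown. TGCTGA was found in 1 of the 9 windows, that of Sox2, and in 16.1% of all 32851 windows of the same length. ACAAAG was found in 3 of the 9 and in 16.5% of all, TAAT in 5 of the 9 and in 54.9% of all, and GAANNTTC in 0 of the 9 and in 6.69% of all. In the windows shown, Sox2 has 1 TGCTGA and 1 ACAAAG, Foxe3 has 2 TAAT, and Pitx3 and Prox1 have no match. These are counts of letters and are not evidence of binding.

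Beyond the 10, 38 of 65 other listed lens transcription factors were in the table. In Epha2-Q722 0 rose and 3 fell, in Epha2-indel722 2 rose and 8 fell, and in Epha2-null 3 rose and 0 fell. These are 7.89%, 26.3% and 7.89% of the 38, beside 6.37%, 13.1% and 11.2% of all genes. On the scale of library totals these counts were 4 and 0, 7 and 1, and 14 and 0. The largest changes were those of Rarg, a retinoic acid receptor (log2 fold change -0.95 in Epha2-indel722), and Etv5, an ETS factor induced by FGF signaling (0.41 in Epha2-indel722 and 0.56 in Epha2-null). Cited2, Gata3 and Meis1 followed with -0.45, -0.44 and -0.39 in Epha2-indel722, and Nfe2l2 with -0.39 in Epha2-Q722. Omitting 1 library ended the Meis1 call in 6 of 6 cases, with adjusted p from 0.057 to 0.129 in edgeR's quasi-likelihood test, that of Nfe2l2 in 3 and that of Cited2 in 1. All 4 calls were lost on library totals. The median log2 fold change of the 38 genes was -0.10 in Epha2-indel722 and -0.04 in Epha2-null, where that of the 10 was -0.12 and -0.14.

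Of 22 cofactors and chromatin regulators, 20 were in the table, with 0 changed in Epha2-Q722 and 1 up and 1 down in each of the other genotypes. These are 0%, 10% and 10% of the 20, near the background of 6.37%, 13.1% and 11.2% of all genes. On the scale of library totals 16 of the 20 rose in Epha2-null and 0 fell. On the main scale the genes that changed were Hdac1 (-0.35, Epha2-indel722), the Groucho corepressor Tle3 (-0.43, Epha2-null) and the SWI/SNF ATPase Smarca4 (0.26 and 0.24). The Smarca4 calls were lost in 4 of 6 omissions of a library for indel722 and in 5 of 6 for the null allele, with adjusted p up to 0.127 and 0.193 in edgeR's quasi-likelihood test. Those of Hdac1 and Tle3 were lost on library totals. Of 32 genes of the BMP, FGF and Notch pathways that act on these factors, 23 were in the table, of which 2 fell and 0 rose in Epha2-Q722, 5 fell and 0 rose in Epha2-indel722, and 3 fell and 4 rose in Epha2-null, where on library totals 2 fell and 13 rose. The shares of the 23 that passed were 8.70%, 21.7% and 30.4%, beside the same background. In Epha2-null the Notch ligand Jag2 rose by 0.85 (log2), and Bmp7, a ligand of lens induction, and Smad1, which carries the BMP signal, fell by 0.81 and 0.64. Hey1, a Notch target, and Spry1, an FGF feedback inhibitor, fell by 0.49 and 0.40 in Epha2-indel722, the latter with an adjusted p of 0.054 on library totals. In Epha2-null Spry1 instead rose, by 0.27 to 0.43 with 1 library left out, and 0 of 6 omissions ended that call. Of 9 measured genes of cell cycle exit, 1 passed with Q722, 2 with indel722 and 1 with the null allele. These shares of 11.1%, 22.2% and 11.1% lie near the same background, since 1 gene is 11.1% of the list. The inhibitors Cdkn1c and Cdkn1b fell by 0.43 and 0.39 in Epha2-indel722, and Cdkn1b fell by 0.34 in Epha2-null. The cyclin gene Ccnd1 fell by 0.25 in Epha2-Q722. Of these 4 calls that of Cdkn1c alone held on library totals, and Cdkn1b was also lost in 1 of 6 omissions for indel722 and 3 of 6 for the null allele.

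Crystallins and other fiber genes, the latter listed as downstream of Maf, Prox1, Sox1, Pitx3 or Hsf4, were counted as lists. Regulation of these genes by the factors was not tested. The lists were chosen with earlier results of these data known. Clic5 and Lgsn, which the authors reported as lower in mutant lenses, are among the fiber genes, so their share that passed is not separate support. Of the 16 crystallins 1 rose and 1 fell in Epha2-Q722 and in Epha2-indel722, and 0 rose and 5 fell in Epha2-null, where the median log2 fold change was -0.39. The 5 include Crybb1 (-0.55), Crybb3 (-0.46), Cryaa (-0.46) and Cryba1 (-0.35), of which Crybb1 alone passed on library totals. On the scale of library totals 1 rose and 1 fell in Epha2-null, with a median of -0.13 beside 0.28 for all genes. Of 26 other fiber genes 3 rose and 1 fell in Epha2-Q722, 4 rose and 4 fell in Epha2-indel722 and 2 rose and 6 fell in Epha2-null. On library totals the higher calls outnumbered the lower ones in each genotype, with 5 against 0 for the Q722 lenses, 9 against 2 for the indel722 lenses and 7 against 1 for the null lenses. The largest changes in the list were those of Clic5, a chloride intracellular channel family gene, and Lgsn, which encodes lengsin, in Epha2-indel722. Clic5 was 121 to 143 normalized CPM in wild type and 0 to 0.172 in Epha2-indel722, and Lgsn was 75.7 to 84.3 and 0.459 to 0.542. Lgsn did not pass in Epha2-Q722 or Epha2-null, although its values there were also low. With 1 library left out its log2 fold change was -3.0 to -1.9 in Epha2-Q722, which passed in 1 of 6 omissions. In Epha2-null it was -2.5 to -1.7. The authors reported Lgsn as lower in each mutant genotype with their own edgeR comparison. In Epha2-null Clic5 fell by 1.51 (log2), a call lost in 5 of 6 omissions of a library. The other 5 genes that fell in Epha2-null, named after their values were seen, were Mip, Lim2, Gja3, Dnase2b and Tdrd7, with log2 fold changes from -0.46 to -0.27. The 2 that rose there were the cochaperone gene Dnajb1 (0.51) and the RNA-binding protein gene Caprin2 (0.79). In Epha2-indel722 the largest rises in the list were those of Slc7a11 (1.61) and Slc1a4 (1.37).

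Of 18 epithelial markers, 2 rose and 0 fell in Epha2-Q722, 1 rose and 6 fell in Epha2-indel722 and 1 rose and 7 fell in Epha2-null, while Foxe3 did not pass in either. Epha2 itself, the mutated gene, is on this list and is 1 of the genes counted as fallen in both. On library totals 2 rose and 2 fell in Epha2-indel722 and 7 rose and 2 fell in Epha2-null, so the balance of these calls turned with the scaling. Among them the connexin gene Gja1 fell by 0.62 (log2) in Epha2-null on the main scale, and Cdh1, which encodes E-cadherin, rose by 0.66 in Epha2-indel722. Cdh1 also rose in the other mutant genotypes. With 1 library left out the rise was 0.53 to 0.69 in Epha2-Q722, where 0 of 6 omissions ended the call. In Epha2-null it was 0.22 to 0.36, and 1 of 6 omissions ended the call. The shares that passed were 11.1%, 38.9% and 44.4% of the epithelial markers, 15.4%, 30.8% and 30.8% of the fiber genes and 12.5%, 12.5% and 31.2% of the crystallins, for Epha2-Q722, Epha2-indel722 and Epha2-null. The background over all genes was 6.37%, 13.1% and 11.2%.

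**Figure D5:**
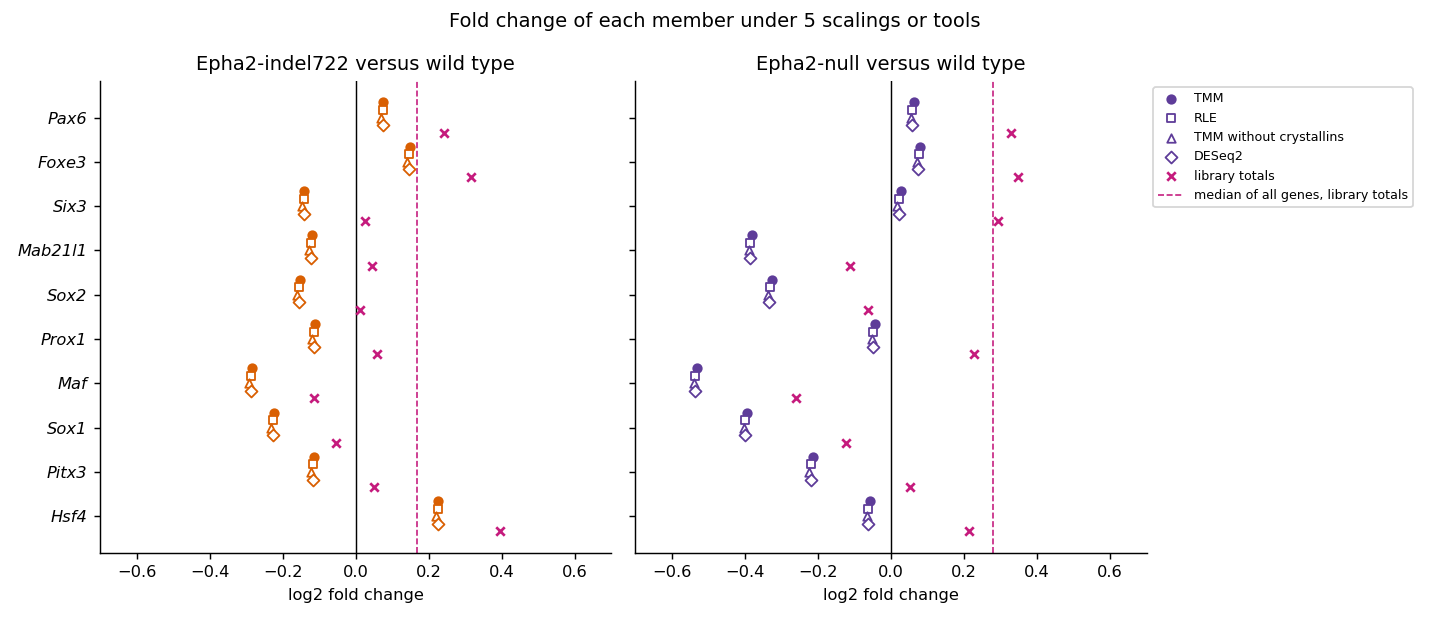
Log2 fold change against wild type (x axis) of the 10 genes in Epha2-indel722 and Epha2-null under TMM, RLE, TMM without crystallins, DESeq2 and plain library totals; the dashed line is the median of all genes on library totals, 0.17 and 0.28. On library totals every gene moved to the right by about the shift of the median gene, Pitx3 in Epha2-null crossed 0 to 0.052 and Prox1 to 0.23, and Maf stayed below 0 at -0.26.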

How the data were processed

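Poly-A RNA of P7 lenses was read as paired ends, aligned to mm10 by the authors with STAR (v2.5.3a), filtered with SAMtools (v1.4.1) and counted per gene with HTSeq (v0.11.0); annotation release and strand setting are not given in the sources used here. The authors deposited whole read counts and CPM on full library totals for 8676 genes, each above 3 CPM in at least 6 libraries, and columns of their own fold changes and p-values, which were not used. Counts were tested with edgeR 4.0.16 in R 4.3.3 (robust glmQLFit, glmQLFTest, TMM, genotype only, all 12 libraries), with Benjamini-Hochberg adjustment over all genes. A gene passed at an adjusted p of at most 0.05. The test was also run on counts simulated from its own fitted model, which cannot show how it behaves where that model does not hold. A prior count of 0.125 entered the log2 fold changes. The 10 genes and all lists were chosen with earlier results of these data known. Genes named from the other lists passed against wild type. They are among the 6 per list with the largest change, apart from Mip, Lim2, Gja3, Dnase2b and Tdrd7. The alternatives were other scalings, DESeq2 1.42.0, edgeR's exact test, fits of 2 genotypes, a minimum of 10 CPM in 3 libraries, a replicate block and omission of each library. Positions are from GENCODE vM21 and promoters from RefSeq.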

Additional observations from a re-analysis of the deposited data

Results flagged for a closer look

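Differences between mutant genotypes were found for 6 of the 10 genes. They met the threshold of 0.05 on the adjusted p of edgeR's quasi-likelihood test. Each marks 2 genotypes whose effects against the same wild type libraries differ. The count of 6 pools several comparisons, and the share of all genes called in at least 1 of them was not computed. Single comparisons called 12.4% of all genes (indel722 to Q722), 17% (null to Q722) and 9.85% (indel722 to null). Whether 6 of 10 exceeds the background was therefore not tested. Sox1 was lower than in Epha2-Q722 by a log2 fold change of -0.33 in Epha2-indel722 and -0.50 in Epha2-null. Mab21l1 showed -0.40 and -0.65 in the same comparisons. Maf, Pitx3 and Sox2 were lower in Epha2-null than in Epha2-Q722, with -0.44, -0.25 and -0.27. Hsf4 was higher in Epha2-indel722 than in Epha2-null, with 0.28. On library totals the calls of Hsf4 (0.18, adjusted p 0.210), Sox2 (-0.15, 0.238), Pitx3 (-0.13, 0.235) and Sox1 in Epha2-indel722 (-0.30, 0.055) were lost, and that of Hsf4 also without Epha2-null library 1 (0.086). Groups of 3 libraries are too small for a check of single outlying libraries.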

How the results depend on the processing

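RLE factors and TMM without crystallins kept direction and side of the threshold for the 10 genes in all 6 comparisons. Plain library totals moved most: Pitx3, Prox1, Hdac1 and Six3os1 in Epha2-null turned to 0.052, 0.23, 0.25 and 0.20, all genes called against wild type became 1297 with Q722, 2388 with indel722 and 4848 with the null allele, and of the 10 genes 1 passed in Epha2-Q722 (Mab21l1), 1 for Epha2-indel722 against Epha2-Q722 and 3 for Epha2-null against Epha2-Q722; between Epha2-indel722 and Epha2-null the count stayed at 1 with Six3 in place of Hsf4; against wild type Maf in Epha2-null kept its call as the only one of the 5, and Hsf4 its call in Epha2-indel722, where those of Maf and Sox1 were lost; the shift of the whole table is part of that setting's construction. DESeq2 called 1 of the 10 in Epha2-indel722 against wild type, and a minimum of 10 CPM called 2 between Epha2-indel722 and Epha2-null. Omitting 1 library left 0 to 0 of the 10 called against wild type with Q722, 0 to 2 with indel722 and 2 to 4 with the null allele, 1 to 2 for Epha2-indel722 and 3 to 5 for Epha2-null against Epha2-Q722, and 0 to 3 between Epha2-indel722 and Epha2-null; all genes called ranged over 370 to 569, 766 to 911, 682 to 892, 699 to 1096, 1125 to 1395 and 602 to 863 in the same order. Deviations of same-numbered libraries of different genotypes gave 3 of 18 correlations over 0.1 (range -0.16 to 0.23). The highest was that of library 3 of Epha2-Q722 and of Epha2-null, and differently numbered libraries reached 0.19. With the replicate number as a block, Sox1 in Epha2-indel722 against wild type was -0.22 with an adjusted p of 0.055 in edgeR's quasi-likelihood test, and no other call of the 10 changed. Depth limits Sox2 and Mab21l1, with 200 to 398 counts per library.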
